A study of Mus musculus with 10 samples.

Results

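Nrf2, encoded by Nfe2l2, and 9 of its target genes were followed in primary B-cell lymphomas of mice with and without Adriamycin (ADR, doxorubicin), on Affymetrix arrays of total RNA. The genes were listed by name: Nfe2l2, Nqo1, Hmox1, Gclc, Gclm, Txnrd1, Srxn1, Slc7a11, Gsr and Prdx1. A gene counted as measured where a probe set of the array was annotated to it alone, and its probe set with the highest mean signal was used. This held for 9 of the 10 genes, out of 18193 genes measured in this way. Prdx1, a peroxiredoxin, shares its probe sets with another gene in the annotation and is not analysed here. Of the 9, 7 passed the filter on low signals and entered the test of 11472 genes, while Nqo1 and Slc7a11 did not and have values only.

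The ADR group holds 5 arrays of cells kept for 5 days in 0.05 µg/ml of the drug, and the untreated group holds 5 arrays of cells from the same 5 lymphomas, which came from lymph nodes (lymphoma_5783, lymphoma_7890, lymphoma_9250, lymphoma_1032 and lymphoma_4936). Both groups carry the Emu-myc transgene, which drives Myc in the B-cell lineage, and lack Suv39h1, a histone H3 lysine 9 methyltransferase (genotype Emu-myc;Suv39h1-/-). In both groups the cells had also received Bcl2, an inhibitor of apoptosis, from a retrovirus with puromycin selection, and had grown on irradiated NIH 3T3 fibroblasts. No Suv39h1-proficient lymphoma is among the samples, so the comparison is of ADR with no treatment in Suv39h1-deficient cells only.

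Nrf2 is a transcription factor that the adaptor Keap1 normally delivers to a ubiquitin ligase for degradation. Oxidants and electrophiles modify Keap1, Nrf2 then accumulates, pairs with small Maf proteins and binds antioxidant response elements in its target genes. Bach1 and the B-cell factor Bach2 bind similar elements and repress some of the same genes. The targets make glutathione (Slc7a11, Gclc, Gclm), keep glutathione and thioredoxin reduced (Gsr, Txnrd1), repair peroxiredoxins (Srxn1), and detoxify quinones and heme (Nqo1, Hmox1). Doxorubicin is a quinone that can redox cycle, beside its action on topoisomerase and DNA. Much of the control of Nrf2 is at the protein level, which arrays do not measure.

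RefSeq promoter windows (GRCm38.p6), 250 bases before to 50 after a gene start, were matched for 7 of the 10 genes, with 9 windows in all. Gclc, Hmox1 and Gsr had none. The core letters of the antioxidant response element, TGACNNNGC on either strand, were in 5 of the 9 windows, 1 each for Nfe2l2, Gclm, Txnrd1, Srxn1 and Prdx1, against 12.4% of 32851 windows of the same length. The AP-1 letters TGANTCA were in the Srxn1 and Prdx1 windows, against 7.81% of all windows, and in the Prdx1 window 1 of their 2 matches overlaps the response element letters. Txnrd1 has 3 windows, of which 1 holds the core letters. Stretches of 4 windows are shown because they belong to Nfe2l2, whose product binds such elements, and to genes of each main branch (thioredoxin, glutathione and sulfiredoxin). Capitals mark TGACNNNGC, or its reverse complement, in the first 3 and TGANTCA in Srxn1. Each is printed 5′ to 3′ on the gene's strand. They lie at chr2:75704865-75704913 (minus strand), chr10:82859084-82859152 (plus strand), chr3:122245393-122245461 (plus strand) and chr2:152105392-152105515 (plus strand), in the order printed. A match describes letters only.
Nfe2l2: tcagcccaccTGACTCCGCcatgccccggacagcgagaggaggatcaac
Txnrd1: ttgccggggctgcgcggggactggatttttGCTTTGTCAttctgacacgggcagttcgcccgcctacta
Gclm: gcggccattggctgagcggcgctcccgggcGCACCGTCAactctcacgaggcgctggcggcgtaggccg
Srxn1: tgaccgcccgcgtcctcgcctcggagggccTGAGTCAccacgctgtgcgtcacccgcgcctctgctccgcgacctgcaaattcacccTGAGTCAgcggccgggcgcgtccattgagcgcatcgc

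Signals are on the log2 scale, and a change is the signal of the ADR array minus that of the untreated array of the same lymphoma. A probe set's signal depends on its own sequence, so levels are compared between arrays and not between genes. The median signal of an array was 4.43 to 4.50 on all arrays but that of ADR-treated lymphoma_1032, where it was 4.15. B-cell identity was checked with Cd79a, a subunit of the B-cell receptor, which had signals between 7.98 and 10.78 in ADR cells and between 8.80 and 10.77 in untreated cells, lowest in lymphoma_1032 in both groups. Ms4a1, the CD20 gene of mature B cells, had its lowest signals there too, at 4.79 in ADR and 5.09 in untreated cells. Pax5, also a B-cell marker, had signals between 4.23 and 5.65 in ADR cells and between 4.89 and 5.59 in untreated cells. These are close to the filter value of 4.43, the median of all probe sets and arrays. Precision rests on 5 arrays in each group.

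Among the 9 genes, Txnrd1 had the most even difference and was higher with ADR in all 5 lymphomas. Nfe2l2 and Hmox1 were higher on average by about as much or more, each in 4 of 5 lymphomas, and Gclc, Gclm, Gsr and Srxn1 had average changes near 0 that hid opposite directions in different lymphomas. None of this passed the test over all genes: 0 of the 7 tested genes had an adjusted p below 0.05 in limma's moderated test (background 0.0% of 11472 genes), and the lowest adjusted p among them was 0.565. At an unadjusted p below 0.05, 3 of the 7 were higher with ADR, namely Txnrd1, Nfe2l2 and Hmox1, against 3.97% of all genes tested. The genes were listed with earlier results of these data known, so that share is a description. Of the 9 genes, 7 were higher on average with a median change of 0.26, where 44.8% of all genes tested were higher and their median change was -0.02. Without lymphoma_5783 and lymphoma_1032, a pair chosen after seeing the data, 4 of the 7 tested genes were higher, with a median change of 0.02. With all lymphomas these were 5 of 7 and 0.16.

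**Figure D1:**
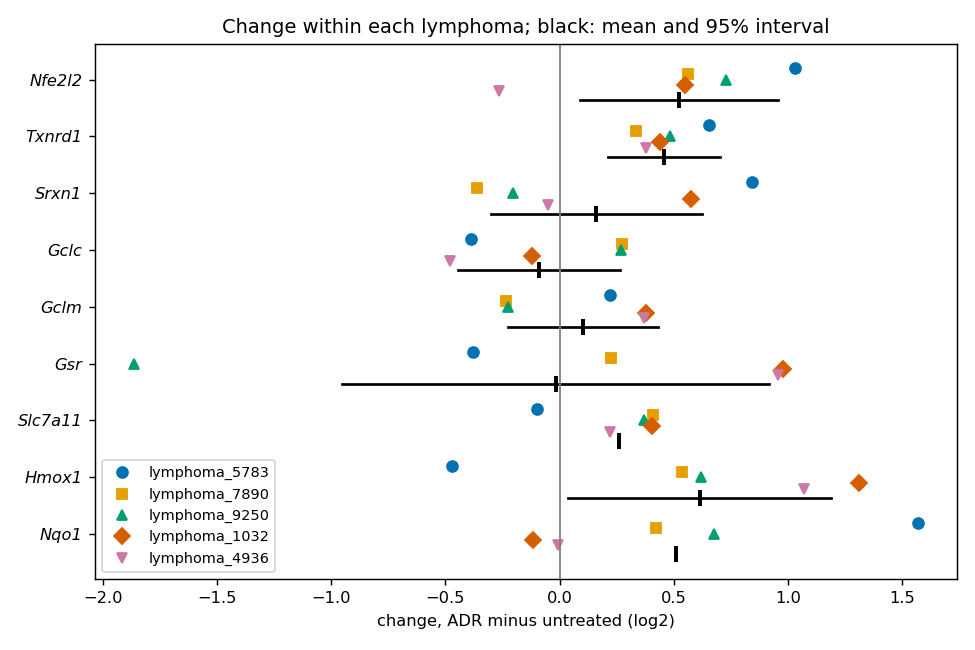
Change of each gene in each lymphoma (x axis, ADR minus untreated, log2; 1 symbol per lymphoma), with the mean over 5 lymphomas (black tick) and limma's 95% interval (black line, tested genes only). The 5 symbols of Txnrd1 lie between 0.33 and 0.65, while those of Gsr run between -1.86 and 0.98.

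Nfe2l2 itself had signals of 9.75, 10.67, 10.57, 10.04 and 9.52 in ADR cells of lymphoma_5783, lymphoma_7890, lymphoma_9250, lymphoma_1032 and lymphoma_4936, against 8.72, 10.10, 9.85, 9.49 and 9.78 in the untreated cells of the same lymphomas. It was higher with ADR in every lymphoma but lymphoma_4936, and the groups overlapped. The mean was 10.11 ± 0.50 in ADR cells and 9.59 ± 0.53 in untreated cells (SD, n = 5 each), a change of 0.52 ± 0.48, or 1.44-fold. The standard error in the fit was 0.19, the 95% interval 0.09 to 0.96 (like all intervals here, for this gene alone), and the adjusted p 0.565 in limma. Without lymphoma_5783 and lymphoma_1032 the change was 0.34. The largest change, 1.03, was in lymphoma_5783, whose untreated cells had the lowest Nfe2l2 signal. The other Nfe2l2 probe set had a mean change of 0.39 ± 0.37, and its signals in lymphoma_5783, 8.06 with ADR and 7.37 untreated, stood above its signals of at most 5.88 elsewhere. In bulk RNA a change in the share of cells of a type and a change in RNA per cell cannot be told apart, which holds for each result here.

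Htra2, Comtd1 and Ptpmt1 were the tested genes whose signals followed the chosen Nfe2l2 probe set most closely over the 10 arrays. Their Pearson correlations were 0.95, 0.93 and 0.92, computed for that probe set only. The other Nfe2l2 probe set was highest in lymphoma_5783, where untreated Htra2, at 7.78, was lowest. Htra2 encodes a protease and Ptpmt1 a phosphatase, both of mitochondria. Htra2 had a mean signal of 8.84 ± 0.43 in ADR cells and 8.40 ± 0.46 in untreated cells, and was higher with ADR in 5 of 5 lymphomas (adjusted p = 0.565 in limma). The 10 arrays are 5 lymphomas measured in both conditions, so they are not independent, and the correlations are descriptions picked as the highest of all genes tested.

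Txnrd1, the cytosolic thioredoxin reductase, a selenoenzyme that uses NADPH to keep thioredoxin reduced, had signals of 10.86, 11.34, 10.85, 11.70 and 10.99 in ADR cells of the 5 lymphomas in the same order, against 10.20, 11.00, 10.36, 11.26 and 10.61 in untreated cells. Each lymphoma was higher with ADR, but the groups overlapped because the lymphomas differed among themselves by more than the change. Of the 9 genes 1 was higher in all 5 lymphomas, as were 4.67% of all genes tested. The change was 0.46 ± 0.12 (SD, n = 5), or 1.37-fold, with a 95% interval of 0.21 to 0.70, an unadjusted p of 0.0029 and an adjusted p of 0.565 in limma. Its SD over lymphomas was small: 5.1% of the genes tested had a smaller one. Leaving out any 1 lymphoma kept the change between 0.41 and 0.49, and without both lymphoma_5783 and lymphoma_1032 it was 0.40. It depended on the probe set, since the other probe sets of Txnrd1 had changes of 0.20 ± 0.61 and 0.04 ± 0.70 and disagreed in sign between lymphomas.

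Srxn1, sulfiredoxin, which restores overoxidised peroxiredoxins with ATP, had signals of 6.48, 5.30, 5.54, 5.46 and 5.88 in ADR cells, against 5.63, 5.66, 5.75, 4.88 and 5.93 in untreated cells. It was higher with ADR in lymphoma_5783 and lymphoma_1032, by 0.84 and 0.58, and lower in the other three. These are also the lymphomas where the mean of the tested macrophage markers was higher by 1.16 and 0.92 and that of the tested fibroblast markers by 0.80 and 0.56; their part in the Srxn1 values was not tested. The mean change of Srxn1 was 0.16 ± 0.52 (adjusted p = 0.813 in limma). Without those lymphomas, left out after seeing the data, it was -0.21. They were the only lymphomas where Srxn1 was higher, so a negative mean was fixed in advance. The Srxn1 probe set with the next highest signal had a mean change of -0.17 ± 0.35 and the one after it 0.13 ± 0.40, so the direction was not shared by all probe sets.

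Glutathione is made from cysteine by glutamate-cysteine ligase, with Gclc as the catalytic and Gclm as the modifier subunit, and on the chosen probe sets the subunits differed in direction. Gclc had signals of 9.49, 9.64, 9.41, 8.11 and 9.03 in ADR cells, against 9.88, 9.37, 9.14, 8.23 and 9.51 in untreated cells. Gclm had signals of 7.87, 7.83, 7.75, 8.19 and 8.44 in ADR cells, against 7.65, 8.07, 7.98, 7.82 and 8.06 in untreated cells. On these probe sets the subunits had opposite signs in each of the 5 lymphomas: in lymphoma_7890 and lymphoma_9250 Gclc was higher and Gclm lower with ADR, and in the other lymphomas Gclc was lower and Gclm higher. The mean changes were -0.09 ± 0.35 for Gclc, with a 95% interval of -0.45 to 0.27 and an adjusted p of 0.871, and 0.10 ± 0.31 for Gclm, with an interval of -0.23 to 0.43 and an adjusted p of 0.837. The other probe set of each gene had a mean change of the opposite sign, 0.09 ± 0.36 for Gclc and -0.14 ± 0.34 for Gclm. On those other probe sets the subunits had opposite signs in 2 lymphomas, lymphoma_7890 and lymphoma_9250, and the same sign in 3. On its chosen probe set Gclm was among the steadier genes across untreated lymphomas, with an SD of 0.18 that was above that of 14.2% of the genes tested. On its other probe set that SD was 0.41, above the median of 0.35 over all genes tested. In Gclc the lymphomas differed more, and lymphoma_1032 was lowest in both groups.

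Slc7a11, the cystine importer xCT that supplies cysteine for glutathione, had signals of 2.75, 4.65, 2.91, 2.81 and 2.67 in ADR cells, against 2.85, 4.24, 2.54, 2.40 and 2.44 in untreated cells. lymphoma_7890 stood apart in both conditions, and its ADR array was the only 1 of 10 above the filter value of 4.43, the median of all probe sets and arrays. Slc7a11 was higher with ADR in 4 of 5 lymphomas, with a mean change of 0.26 ± 0.22, a value without a test at a signal this low. The other Slc7a11 probe set also had its highest signals in lymphoma_7890, 4.10 with ADR and 4.16 untreated, but its mean change was -0.13 ± 0.32. Slc3a2, which encodes the heavy chain that brings xCT to the cell surface, had signals of 9.76 ± 0.05 in ADR cells and 9.90 ± 0.18 in untreated cells.

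Gsr, glutathione reductase, had the widest changes of the 9 genes, with signals of 6.09, 8.38, 5.21, 7.92 and 7.34 in ADR cells, against 6.46, 8.16, 7.07, 6.94 and 6.39 in untreated cells. It was lower with ADR by 1.86 in lymphoma_9250 and higher by 0.98 in lymphoma_1032 and 0.96 in lymphoma_4936. The SD of the change, 1.18, was above that of 98.9% of the genes tested, and the mean change of -0.02 (95% interval -0.95 to 0.92, adjusted p = 0.993 in limma) describes no single lymphoma. Without lymphoma_9250 the mean change was 0.45, with an adjusted p of 0.715. The other Gsr probe set gave the same picture in lymphoma_9250, with 5.64 in ADR and 7.03 in untreated cells, but the opposite sign in lymphoma_5783, with 5.27 in ADR and 4.39 in untreated cells. Across the ADR arrays Gsr spanned 9.05-fold on the chosen probe set, against 3.42-fold across the untreated arrays (SD 1.32 and 0.71). On the other probe set the SD was 1.24 across ADR arrays and 1.32 across untreated arrays, so the wider spread with ADR was not shared.

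**Figure D2:**
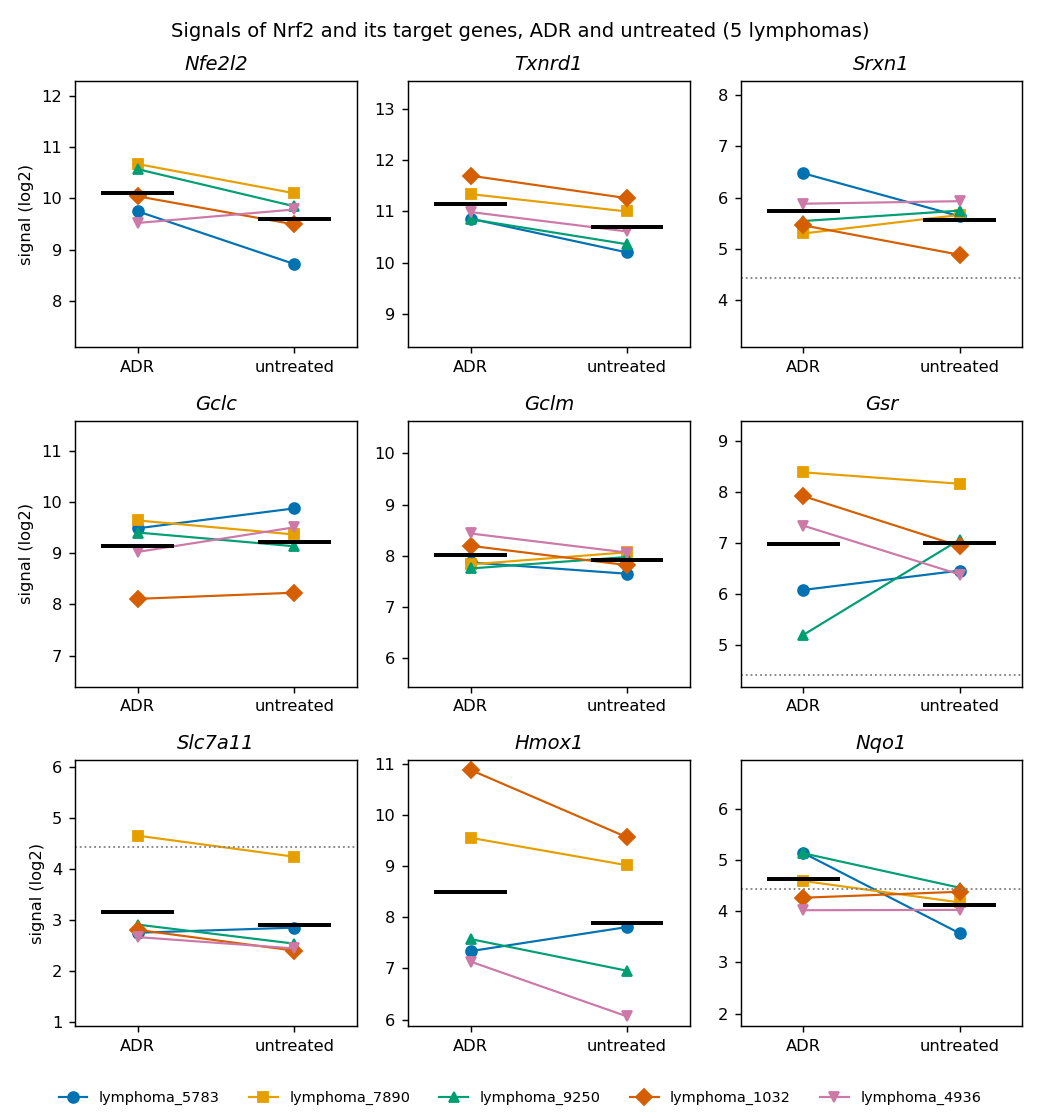
Signal of each of the 9 genes (y axis, log2, the same span in each panel) in ADR cells (left) and untreated cells (right); lines join the 2 arrays of a lymphoma, black bars are means of 5 arrays and the dotted line is the filter value of 4.43 where it falls within the panel. The lines of Txnrd1 run in parallel, those of Gsr cross, and Slc7a11 stands apart in lymphoma_7890.

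Hmox1, heme oxygenase 1, which splits heme into biliverdin, carbon monoxide and iron, had signals of 7.34, 9.55, 7.57, 10.88 and 7.13 in ADR cells, against 7.81, 9.02, 6.96, 9.56 and 6.06 in untreated cells. The lymphomas differed far more than the conditions: the highest and the lowest lymphoma were 13.4-fold apart in ADR cells and 11.3-fold apart in untreated cells, and 97.1% of the genes tested had a smaller SD across untreated lymphomas. It was higher with ADR in 4 of 5 lymphomas, most in lymphoma_1032 and lymphoma_4936 by 1.31 and 1.07, and lower in lymphoma_5783 by 0.47. The mean change was 0.61 ± 0.69 (SD, n = 5), or 1.53-fold, with a 95% interval of 0.04 to 1.19 and an adjusted p of 0.575 in limma. Of the 9 genes 4, namely Txnrd1, Nfe2l2, Hmox1 and Slc7a11, were higher in 4 or 5 lymphomas, as were 20.2% of the genes tested. No Hmox1 probe set other than this one was annotated.

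Macrophages express Hmox1, and macrophage markers also differed widely between lymphomas. The mean signal of the 14 tested macrophage markers was 8.86, 9.92, 6.19, 10.07 and 6.25 in ADR cells of the 5 lymphomas, against 7.69, 9.68, 6.41, 9.15 and 6.05 in untreated cells. lymphoma_7890 and lymphoma_1032, which had the most Hmox1, also had the highest marker signals, and lymphoma_9250 and lymphoma_4936 the lowest. In lymphoma_5783 the mean of the tested markers was higher with ADR by 1.16 and Hmox1 lower by 0.47, and in lymphoma_4936 the mean was higher by 0.20 and Hmox1 by 1.07. The markers were not uniform in lymphoma_5783: Cd14 was lower there by 1.30, and of the markers that did not pass the filter C1qa, C1qb, C1qc and Mrc1 were lower too. C1qa had 3.91 with ADR and 6.82 untreated, and Mrc1 had 4.70 with ADR and 7.64 untreated. Of all 22 markers, 14 were higher and 8 lower in that lymphoma. Without lymphoma_5783 and lymphoma_1032, a pair chosen after seeing the data, the Hmox1 change was 0.74. That pair holds the only lymphoma where Hmox1 was lower and the one where it rose most. Of 22 macrophage markers with a probe set, Cd163, Vsig4 and Timd4 were below the filter value on all arrays, and the summed linear signal of the 22 ran between 4758 and 46150 in ADR cells and between 3914 and 28907 in untreated cells. Among the tested ones Mpeg1, which encodes perforin-2, and Ctss, the protease cathepsin S, were higher with ADR in 5 of 5 lymphomas, by 0.96 ± 0.75 and 0.40 ± 0.26. Markers that did not pass the filter, and so have no test, included some of the opposite direction. Mrc1 was lower in 5 of 5 lymphomas, with a mean change of -0.86, and C1qa, C1qb and C1qc were each lower in 4 of 5. By their mean over the 5 lymphomas, 14 of the 22 markers were higher and 8 lower. The part of macrophages in the Hmox1 levels was not tested. Saa3, Ckb and Fndc3a had the signals most like those of Hmox1 over the 10 arrays, with Pearson correlations of 0.97, 0.97 and 0.96, and Saa3, an acute phase protein that macrophages make, ran between 6.14 and 13.43 in ADR cells and between 5.95 and 12.14 in untreated cells.

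**Figure D3:**
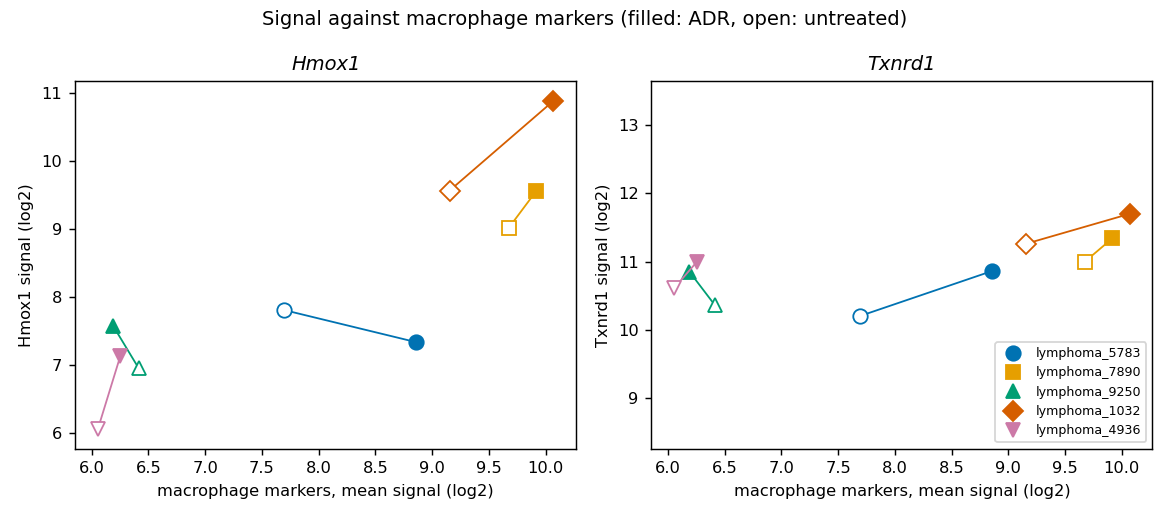
Hmox1 (left) and Txnrd1 (right) signal (y axis, log2) against the mean signal of 14 macrophage markers (x axis, log2) on each array; filled symbols are ADR cells, open symbols untreated cells, and lines join the arrays of a lymphoma. The Hmox1 signals of lymphoma_1032 and lymphoma_7890, between 9.02 and 10.88, lie at the highest marker signals. Txnrd1 is also highest in these lymphomas, between 11.00 and 11.70, and is higher with ADR in each lymphoma.

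Nqo1, the quinone reductase NAD(P)H dehydrogenase 1, had signals of 5.14, 4.59, 5.13, 4.26 and 4.02 in ADR cells, against 3.57, 4.17, 4.46, 4.38 and 4.03 in untreated cells. It was above the filter value on 4 of 10 arrays, 3 of them of ADR cells and 1 of untreated cells. The mean change was 0.51 ± 0.68 without a test, and it came largely from lymphoma_5783, where the change was 1.57; without that lymphoma it was 0.24. In lymphoma_1032 and lymphoma_4936 the changes were -0.12 and -0.01.

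The ADR and untreated signals overlapped for all 9 genes, as they did for all but 0.357% of the genes tested. The median SD of the change over the 9 genes was 0.48, against 0.33 over all genes tested, and their median SD across untreated arrays was 0.53, against 0.35. The lymphomas gave different sets: in lymphoma_5783 Nqo1, Nfe2l2, Srxn1 and Txnrd1 were higher by 0.65 or more while Hmox1, Gclc and Gsr were lower, and in lymphoma_4936 Hmox1 and Gsr were higher by 0.96 or more while Nfe2l2 and Gclc were lower.

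The genes that control Nrf2 had small average differences. Of 13 genes, all tested, 7 were higher and 6 lower, 0 passed in either direction, and the median change was 0.06, beside -0.02 over all genes tested. Keap1 had a mean signal of 7.47 ± 0.24 in ADR cells and 7.38 ± 0.37 in untreated cells, a change of 0.08 ± 0.20 (adjusted p = 0.839 in limma). Bach1 had 8.08 ± 0.63 in ADR cells and 8.01 ± 0.43 in untreated cells, a change of 0.06 ± 0.38. Bach2, named here after its values were seen, had changes of -0.08, 0.17, 1.12, -1.68 and -1.33 in lymphoma_5783, lymphoma_7890, lymphoma_9250, lymphoma_1032 and lymphoma_4936. Its mean change was -0.36 ± 1.15 (adjusted p = 0.784 in limma). The mean over the tested B-cell markers was also lower in lymphoma_1032 and lymphoma_4936, by 0.23 and 0.48, and higher in lymphoma_9250, by 0.59. The median change over all genes tested was -0.17 in lymphoma_1032, 0.06 in lymphoma_4936 and -0.02 in lymphoma_9250. The B-cell value in lymphoma_1032 was thus near that of all genes. The part of B-cell content in the Bach2 values was not tested.

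**Figure D4:**
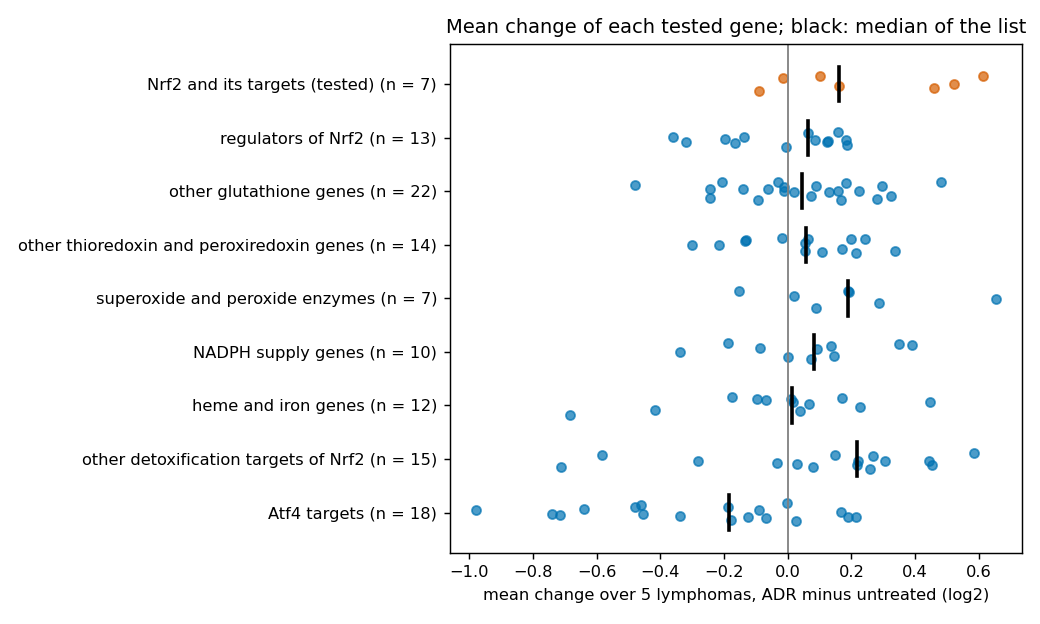
Mean change over 5 lymphomas of each tested gene (x axis, ADR minus untreated, log2) by list, with the number of genes; black lines are medians. Among the pathway lists shown the medians run between -0.18 for Atf4 targets and 0.22 for other detoxification targets, with 0.16 for Nrf2 and its tested targets.

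Other genes of glutathione use showed both directions. Of 22 tested genes 12 were higher and 10 lower, 0 passed, and the median change was 0.05. Gsto1, a glutathione transferase of the omega class, was higher in 5 of 5 lymphomas, with 10.66 ± 0.44 in ADR cells and 10.36 ± 0.61 in untreated cells (change 0.30 ± 0.18, adjusted p = 0.565 in limma). Among other thioredoxin and peroxiredoxin genes 9 of 14 were higher and 5 lower, 0 passed, and the median change was 0.06. No gene of that list had 1 sign in all 5 lymphomas, although Prdx2, a peroxiredoxin named after its values were seen, had an SD of the change of 0.11, close to that of Txnrd1, at a mean change of 0.11.

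Genes that supply NADPH, the electron source of Txnrd1, Gsr and Nqo1, were higher for 7 of 10 tested genes and lower for 3, with 0 past the threshold and a median change of 0.08. Pgd, 6-phosphogluconate dehydrogenase of the pentose phosphate pathway, was higher in 5 of 5 lymphomas, with 10.83 ± 0.54 in ADR cells and 10.44 ± 0.57 in untreated cells (change 0.39 ± 0.21, adjusted p = 0.565 in limma). Nadk, the kinase that makes NADP from NAD, was also higher in 5 of 5, with 9.86 ± 0.53 in ADR cells and 9.51 ± 0.42 in untreated cells (change 0.35 ± 0.16). The list was not uniform. Its mitochondrial enzymes Idh2 and Mthfd2, named after their values were seen, were lower in 5 of 5 lymphomas, with changes of -0.19 ± 0.18 and -0.34 ± 0.19.

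Superoxide and peroxide enzymes were higher for 6 of 7 tested genes and lower for 1, with 0 past the threshold and a median change of 0.19. Cyba, the p22phox subunit of the NADPH oxidase of phagocytes and B cells, was higher in 5 of 5 lymphomas by 0.29 ± 0.27, and Sod1, cytosolic superoxide dismutase, was lower in 5 of 5 by a change of -0.15 ± 0.15. Macrophage markers also differed in this comparison, with 13 of 14 tested markers higher on average. Over all 22 markers with a probe set, the filter not applied, 14 were higher and 8 lower, with a median change of 0.22. The median of the tested markers was 0.45. Without lymphoma_5783 and lymphoma_1032, left out after seeing the data, it was 0.10, and the median of the superoxide list was 0.08. The tested macrophage and fibroblast markers had their largest mean rises in those lymphomas, so lower marker values without them follow from the choice of lymphomas. Fibroblast markers, which the NIH 3T3 feeder cells also express, were higher for 14 of 16 tested genes, with a median of 0.21 that was -0.06 without those lymphomas. Acta2 (smooth muscle actin) and Lox (lysyl oxidase) were higher in 5 of 5 lymphomas, by 0.71 ± 0.63 and 0.68 ± 0.49. Col1a1 of the same list, named after its values were seen, was lower in 5 of 5, with a change of -0.43 ± 0.13. The part of these cells in the list's values was not tested.

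Heme and iron genes were higher for 7 of 12 tested genes and lower for 5, with 0 past the threshold and a median change of 0.01. Fth1, the ferritin heavy chain and an Nrf2 target that stores the iron heme oxygenase frees, was higher in 5 of 5 lymphomas by 0.23 ± 0.21, with 13.90 ± 0.56 in ADR cells and 13.67 ± 0.61 in untreated cells. Blvrb, a biliverdin reductase named after its values were seen, had a change of -0.68 ± 0.60, with lower signals in 4 of 5 lymphomas, the opposite direction to Hmox1. Other detoxification targets of Nrf2 were higher for 11 of 15 tested genes and lower for 4, with 0 past the threshold, a median change of 0.22 and no gene of 1 sign in all 5 lymphomas. With the stricter filter on low signals 9 of these genes stayed in, with a median change of 0.03.

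Slc7a11 and the glutathione-degrading enzyme gene Chac1 also answer to Atf4, the factor of the amino acid and integrated stress response. Of 18 tested genes, Atf4 and its targets, 14 were lower and 4 higher, 0 passed, and the median change was -0.18. Asns, asparagine synthetase, was lower in 5 of 5 lymphomas, with 9.13 ± 0.24 in ADR cells and 9.59 ± 0.28 in untreated cells (change -0.46 ± 0.27, adjusted p = 0.565 in limma). Cebpg, a partner of Atf4, was lower in 5 of 5 by a change of -0.45 ± 0.33. Atf4 itself had 10.44 ± 0.23 in ADR cells and 10.52 ± 0.17 in untreated cells.

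The other marker lists were small or mixed. T-cell markers were higher for 2 of 8 tested genes, with a median change of -0.07, and B-cell markers for 9 of 16, with 0.13. The 3 tested neutrophil markers had a mean change of 0.59 over the 5 lymphomas, from -0.19 in lymphoma_9250 to 1.82 in lymphoma_1032. Lcn2, 1 of the 3, was lower in 4 of 5 lymphomas. S100a9, Mpo, Camp, Ngp and Cxcr2 were below the filter value on all arrays. Of the erythroid list, whose cells handle much heme, 2 genes were tested and both were lower, Ermap in 5 of 5 lymphomas with a change of -0.53 ± 0.49. Ermap signals were near the filter value, at 4.41 ± 0.22 in ADR cells and 4.94 ± 0.29 in untreated cells. Its largest change, -1.25, was in lymphoma_1032. Hba-a1, Alas2, Klf1, Slc4a1 and Gata1 were below the filter value on all arrays. RNA integrity, read as the 3′ minus 5′ signal of control probe sets, differed between the arrays of a lymphoma by between -0.04 and 0.08.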

How the data were processed

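The deposited table holds log2 signals, 1 per probe set and array. The submitters' processing notes name RMA and Partek as the authors' tools. Their versions and settings, and the base of the logarithm, are not given in any source used here; base 2 was taken because the deposited values span the range usual for log2 signals. No further normalization was applied. Of 45101 probe sets, 34945 carried 1 gene symbol, 932 several and 9160 none in the platform annotation, and 64 were controls. Each gene took its probe set with the highest mean, and the test took genes above 4.43, the table's median, on 5 or more of the 10 arrays. limma 3.58.1 in R 4.3.3 (lmFit, eBayes) was fitted to the whole table with the lymphoma as a block, with two-sided p-values adjusted by Benjamini-Hochberg over 11472 genes and a threshold of 0.05. The title's number names the lymphoma and pairs the arrays; deviations from the group means correlated between 0.52 and 0.79 within pairs. The fit was checked on simulated data. Python 3.11.15, pandas 2.3.3 and matplotlib 3.10.9 handled tables and plots.

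Members and gene lists were chosen with earlier results of these data known, and lists were described by counts and medians without a set test. Named were all members, Keap1, Bach1, of each list up to 2 genes with the largest change of 1 sign in all 5 lymphomas, and the 3 genes most correlated with Nfe2l2 and Hmox1; the rest were named for their role or after their values were seen. Alternatives were no block, no filter and a 70th percentile filter, the mean of all probe sets or another probe set, quantile normalization, median centring, a trended robust prior, array weights and leaving out lymphomas.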

Additional observations from a re-analysis of the deposited data

Results flagged for a closer look

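In 27 groups of 5 values (levels in ADR, levels in untreated and changes of the 9 genes), 3 had a value far from the others by Dixon's criterion, which chance meets in about 1 in 20 groups. Slc7a11 in lymphoma_7890 had 4.65 in ADR cells, where the next highest lymphoma had 2.91, and 4.24 in untreated cells, where the next highest had 2.85. Srxn1 in untreated cells of lymphoma_1032 had 4.88, where the next lowest lymphoma had 5.63; its ADR signal of 5.46 lay within the range of the other lymphomas.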

How the results depend on the processing

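No gene, of the 9 or of all genes, passed the adjusted threshold in any of the 14 alternatives of the fit. Genes at an unadjusted p below 0.05 numbered 973, against 262 with no replicate block (the pairing ignored), 499 without lymphoma_5783 and lymphoma_1032 (chosen after seeing the data) and between 551 and 1446 without 1 lymphoma. The changes of Txnrd1, Nfe2l2 and Hmox1 stayed positive in every alternative run, with adjusted p from 0.211, 0.153 and 0.48 up to 0.9999. Averaging its probe sets brought Txnrd1 to 0.23. The median change of the 7 tested genes, 0.16, was between 0.057 and 0.45 without 1 lymphoma, 0.0204 without both named above and 0.032 with array weights.

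The signs of small changes turned. Gclc, at -0.09, was 0.00065 when probe sets were averaged, 0.012 with array weights, 0.0204 without both lymphomas and 0.091 on its other probe set, and between -0.181 and 0.0081 without 1 lymphoma. Gclm, at 0.10, was -0.019 when probe sets were averaged, -0.0064 with array weights, -0.0297 without both lymphomas and -0.14 on its other probe set. Srxn1, at 0.16, was -0.21 without both and -0.17 on another probe set, and between -0.0096 (without lymphoma_5783) and 0.292 without 1 lymphoma. Gsr, at -0.02, was 0.11 when probe sets were averaged, 0.051 with median centring and 0.24 on its other probe set, and between -0.265 (without lymphoma_1032) and 0.45 (without lymphoma_9250) without 1 lymphoma. The cause was not tested. Of the lists, the superoxide median of 0.19 was 0.091 when probe sets were averaged, 0.26 with median centring, 0.0798 without both lymphomas and between 0.099 and 0.26 without 1 lymphoma. The detoxification median was 0.0300 with the stricter filter, where fewer genes were tested, and the regulators' median was between -0.0745 and 0.0917 without 1 lymphoma. Leaving out 1 lymphoma also turned the sign of other small medians: the lowest were -0.004 for glutathione, -0.0072 for thioredoxin, -0.011 for NADPH, -0.037 for heme and iron and -0.076 for B-cell markers, while the T-cell median reached 0.025 and the lowest detoxification median was 0.111. Low signals limit Nqo1 and Slc7a11, and 5 pairs limit every interval.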
